A study of Mus musculus with 8 samples.

Results

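The genes described here code for solute carriers of 7 families, Slc1, Slc3, Slc6, Slc7, Slc36, Slc38 and Slc43, most of which move amino acids across membranes. The members were all protein-coding genes in the count tables whose mouse symbol is one of these family names followed by the letter a and a number, and there were 61 of them among 43629 genes. Symbols with a further letter, such as Slc6a20a and Slc6a20b, were thereby left out and placed in a list of other carriers. Not every member carries amino acids, since the symbols also take in the carriers of dopamine (Slc6a3), noradrenaline (Slc6a2), serotonin (Slc6a4), creatine (Slc6a8) and purine nucleobases (Slc43a3). RNA was sequenced from lower first molars of E18.5 mouse embryos, left and right teeth of an animal together. The 4 Control embryos (J3, J5, J6 and J7) were Jagged1 fl/fl, so they carried the floxed alleles without Cre, and the study calls them WT littermates. The 4 mutant embryos (K14J26, K14J28, K14J29 and K14J30) were K14Cre;Jagged1 fl/fl, in which a keratin 14 promoter drives Cre in epithelium and leaves the alleles intact in dental mesenchyme. Sex was not given in the labels, nor which embryos shared a litter. Xist, the transcript of the inactive X chromosome, was high in K14J28 and K14J29 and in no Control embryo. Sex and genotype therefore cannot be fully told apart in these embryos.

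Amino acids enter cells through carriers that differ in what they take and in what drives them. Carriers of the Slc1, Slc6 and Slc38 families mostly use the sodium gradient, Slc36 carriers use protons, and the Slc7 light subunits exchange one amino acid for another once joined to a heavy subunit of the Slc3 family. Secretory cells need a large supply, and ameloblasts and odontoblasts, which lay down enamel and dentin, secrete matrix proteins in bulk around birth in the mouse molar.

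Between 17327224 and 28613574 reads were counted on genes per Control embryo and between 24692128 and 29792467 per mutant embryo. Levels are given as CPM, the count of a gene relative to the library size after TMM scaling, and 3 counts correspond to at most 0.166 CPM. Jag1, the deleted gene, checked the labels. It had 95.2, 103, 104 and 99.9 CPM in J3, J5, J6 and J7 and 34.0, 39.0, 46.0 and 57.1 CPM in K14J26, K14J28, K14J29 and K14J30, the order in which embryos are given throughout. Its log2 fold change, mutant over Control, was -1.19 with a standard error of 0.14 (adjusted p = 0.00517), by the quasi-likelihood test of edgeR, adjusted over 17129 genes by the Benjamini-Hochberg method, from which all p-values given here come.

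Several libraries stood apart in markers of cell types. Of 7 ameloblast markers, 6 were tested and 5 rose, and their summed level was 838, 2119, 3423 and 711 CPM in the Control embryos and 114747, 3959, 26234 and 9976 CPM in the mutants. Amelx was the most abundant of them in Control embryos, and Amtn reached the count minimum in too few embryos to be tested. K14J26 was far the highest in these genes and K14J28 the lowest of the mutants. The 5 odontoblast markers, of which Col1a1 was the most abundant and 4 rose, summed to 4506, 7473, 8442 and 5079.9 CPM in the Control embryos and to 24159, 7810.3, 17241 and 13679.5 CPM in the mutants. The 10 skeletal muscle markers, led by Acta1, reached 5.93, 15.1, 444 and 226 CPM in the Control embryos, high in J6 and J7, against 6.44, 14.3, 12.5 and 20.9 CPM in the mutants. K14J28 was high in 6 markers of keratinizing oral epithelium, led in Control embryos by Krt13, which summed to 68.1, 22.5, 143 and 22.9 CPM in the Control embryos and 19.9, 692, 60.6 and 59.6 CPM in the mutants, and in 5 osteoclast markers, led in Control embryos by Mmp9, with 429, 685, 301 and 340.3 CPM in the Control embryos and 301, 1816, 618 and 563 CPM in the mutants. In tissue of mixed cells, more cells of a type and more RNA per cell cannot be told apart.

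The tissue's own markers were present in every embryo. The 6 markers of dental epithelium, with Krt5 the most abundant, summed to 5162, 5014, 5371 and 4657 CPM in the Control embryos and 8083, 5486, 6926 and 6219.6 CPM in the mutants, and Krt14 alone of them rose. The 6 markers of dental mesenchyme, with Col3a1 the most abundant, summed to 3521, 3699.9, 3805 and 4329 CPM in the Control embryos and 3171, 3307, 3558 and 3484 CPM in the mutants, where Lum, Pdgfrb and Twist1 fell and Pdgfra rose. Of 5 bone markers 3 rose, of 8 neuron markers 1 (Tubb3) rose, of 6 endothelial markers 1 (Tie1) fell, and of 10 skeletal muscle markers 1 (Ckm) fell. None of the markers of cartilage, osteoclasts, keratinizing oral epithelium, Schwann cells, erythroid cells or macrophages passed an adjusted p of 0.05.

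Of the 61 carriers, 48 had enough counts to be tested, and 8 rose and 3 fell in the mutant molars. The rises were 16.7% of the tested carriers, where 9.52% of all 17129 tested genes rose, and the falls were 6.25%, where 6.61% of all tested genes fell. The 8 that rose were the exchanger subunits Slc7a8 and Slc7a7, the glutamine carrier Slc38a3, the neutral amino acid carriers Slc6a19 and Slc43a2, the proton-coupled Slc36a2, the dopamine carrier Slc6a3, and Slc38a11. The 3 that fell were Slc7a10, Slc6a15 and Slc6a17, all carriers of neutral amino acids. Scaled by library size alone, 5 carriers rose and 4 fell. By that scaling 855 of all 17129 tested genes rose and 1060 fell, against 1631 and 1133 under TMM. The groups did not overlap for 9 carriers that were higher in all mutants (18.8%, against 12.6% of all tested genes) and for 6 that were lower (12.5%, against 11.6%). The study's methods set limits on p and on fold change without naming adjustment, scale or direction, and were read here as a p not above 0.05 before adjustment together with a log2 fold change of 0.5 or more in either direction. By this reading 14 carriers were higher (29.2%, against 8.33% of all tested genes) and 4 were lower (8.33%, against 5.85%). Slc1a2, Slc38a11, Slc6a19, Slc6a7 and Slc7a12 reached the count minimum in the mutant group alone, so a difference was built into their being tested, and the shares carry no weight as evidence about the families. The median log2 fold change of the tested carriers was 0.16 and that of all tested genes 0.0058.

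**Figure D1:**
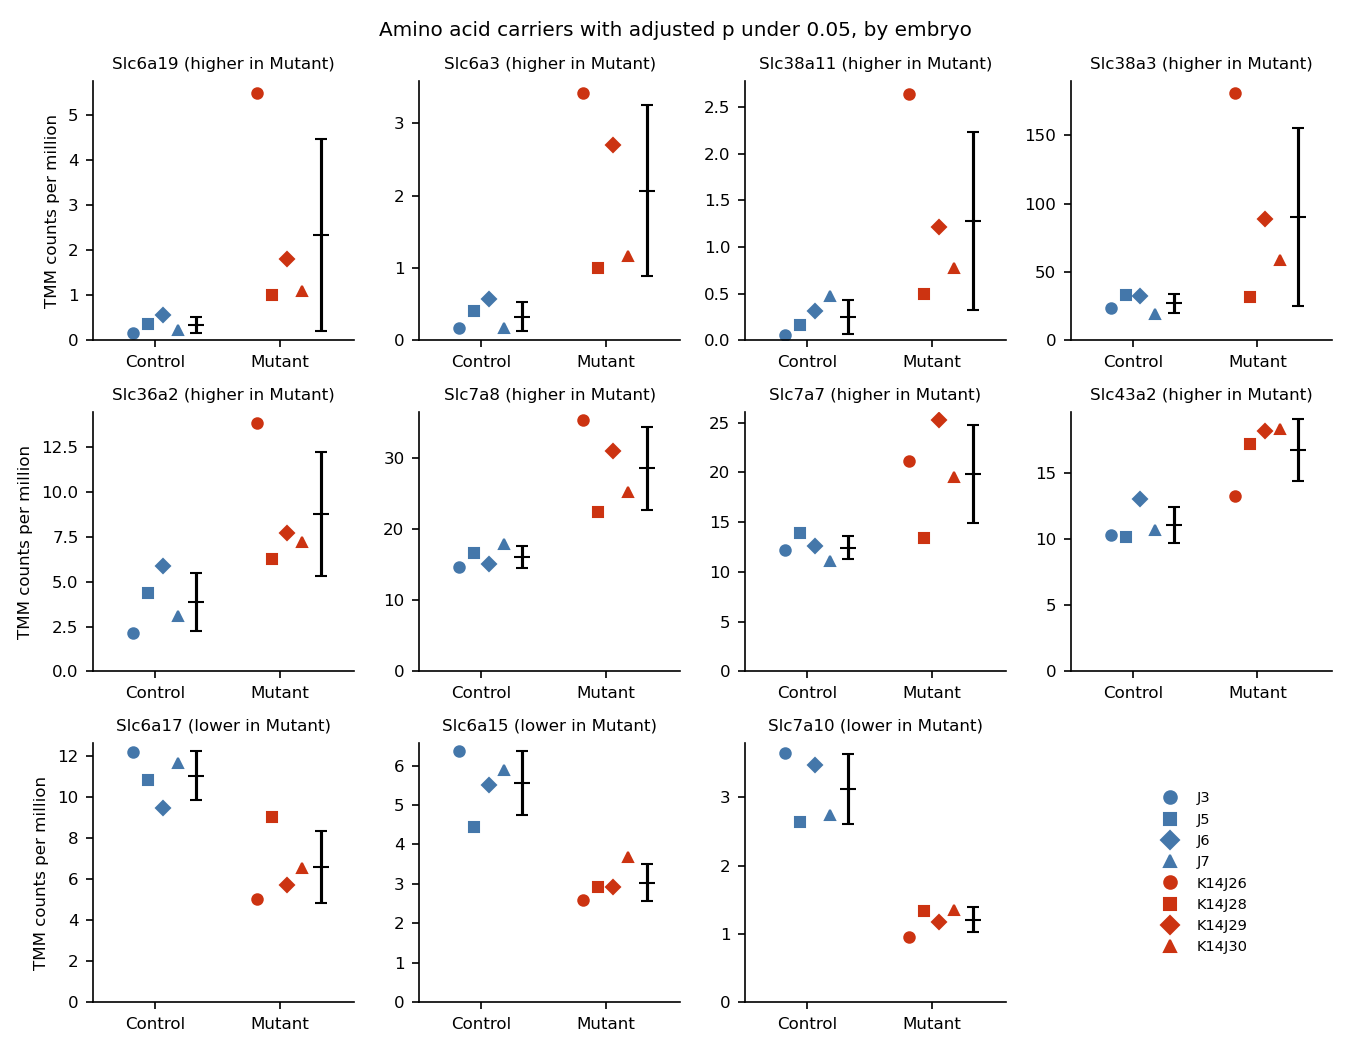
TMM-scaled level (CPM) in each embryo for the 11 carriers with an adjusted p under 0.05, with the mean and SD of each group of 4 beside the points. Slc38a3 and Slc7a7 overlap between the groups through K14J28, and the other 9 do not overlap.

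Of 7 tested light subunits of the heteromeric exchangers, 2 rose and 1 fell, where 9.52% of all tested genes rose and 6.61% fell. Slc7a8, which carries neutral amino acids of all sizes, had 14.7, 16.7, 15.0 and 18.0 CPM in Control embryos and 35.4, 22.5, 31.0 and 25.3 CPM in mutants. All mutants lay above all Control embryos, highest in K14J26 and lowest in K14J28, and the log2 fold change was 0.82 with a standard error of 0.14 (adjusted p = 0.0127). Slc7a7, which exchanges cationic for neutral amino acids, had 12.2, 13.9, 12.6 and 11.1 CPM in Control embryos and 21.1, 13.4, 25.3 and 19.5 CPM in mutants. K14J28 lay within the Control range, and the log2 fold change was 0.67 with a standard error of 0.17 (adjusted p = 0.0333). The call ended when scaled by library size alone, at a log2 fold change of 0.56 (adjusted p = 0.0537). It also ended with the level of Xist, high in K14J28 and K14J29 only, as a covariate, at 0.73 (adjusted p = 0.0632). With that covariate 1510 of all 17129 tested genes rose and 799 fell, against 1631 and 1133 without it. Both genes lie on chromosome 14 of GRCm38, Slc7a8 from 54722209 to 54781946 and Slc7a7 from 54369442 to 54417780. Slc7a10, a carrier of small neutral amino acids including serine, had 3.65, 2.64, 3.48 and 2.74 CPM in Control embryos and 0.961, 1.33, 1.18 and 1.36 CPM in mutants. Every mutant was below every Control embryo, and the log2 fold change was -1.36 with a standard error of 0.19 (adjusted p = 0.00768). Slc7a8 and Slc7a10 were the only called carriers that passed in each of the 8 fits with 1 embryo left out.

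Slc7a11, the cystine and glutamate exchanger, had 41.5, 38.6, 34.2 and 33.9 CPM in Control embryos and 21.4, 32.7, 28.4 and 32.9 CPM in mutants. Its groups did not overlap, with all mutants lower, but it missed the threshold at a log2 fold change of -0.36 with a standard error of 0.14 (adjusted p = 0.0981). Slc7a5, a carrier of large neutral amino acids, was the most abundant light subunit per length. It had 73.4, 78.2, 76.3 and 82.4 CPM in Control embryos and 64.2, 72.1, 53.2 and 85.3 CPM in mutants, which overlapped, at a log2 fold change of -0.18 with a standard error of 0.13 (adjusted p = 0.354). Slc7a6 had a log2 fold change of 0.16 with a standard error of 0.064 (adjusted p = 0.109). Slc7a12 was counted 0, 2, 0 and 0 times in the Control embryos and 12, 1, 15 and 1 times in the mutants, and no fold change is given at such counts. The heavy subunit Slc3a2, the common partner of most light subunits, had 151, 146, 145 and 145 CPM in Control embryos and 148, 126, 128 and 136 CPM in mutants, at a log2 fold change of -0.13 with a standard error of 0.063 (adjusted p = 0.187). The other heavy subunit, Slc3a1, was low and had a log2 fold change of -0.33 with a standard error of 0.20 (adjusted p = 0.282).

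Activating transcription factors of the amino acid response are known to bind sites with the core TGATGNAA, and 2 of the exchanger genes above hold it near their starts in the RefSeq promoter table for GRCm38.p6. The stretches are shown, 5′ to 3′ on the gene's strand with matches on either strand in capitals, because these are the exchangers with a match among the carriers described in full. They were chosen after values and matches were seen, and a match describes letters and is not evidence of a site.
Slc7a7, chr14:54418048-54418115, minus strand, first match 141 bases before the start: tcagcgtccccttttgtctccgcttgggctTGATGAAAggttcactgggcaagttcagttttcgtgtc
Slc7a11, chr3:50443642-50443709, minus strand, first match 66 bases before the start: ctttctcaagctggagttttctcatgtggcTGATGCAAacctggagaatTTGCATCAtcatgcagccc
Both stretches lie before the RefSeq start and outside every exon of GENCODE M21. Promoters of 300 bases, 250 before the start and 50 after it, were found for 43 of the 61 carriers, 64 promoters in all. TGATGNAA, read on both strands, was in 5 of the 64 (7.81%) and in 1304 of all 32851 promoters (3.97%). The genes were Slc1a4, Slc6a21, Slc7a11 and Slc7a7. The core of the antioxidant response element, TGACNNNGC, was in 11 of the 64 (17.2%) and in 12.4% of all promoters, at Slc36a1, Slc38a2, Slc43a1, Slc6a11, Slc6a13, Slc6a16, Slc6a9, Slc7a1 and Slc7a6.

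Among the cationic amino acid carriers, none of 4 tested passed the threshold. Slc7a3, on the X chromosome, had 3.82, 3.09, 4.00 and 3.95 CPM in Control embryos and 4.04, 4.39, 7.87 and 5.47 CPM in mutants, without overlap, at a log2 fold change of 0.55 with a standard error of 0.22 (adjusted p = 0.109). Slc7a4, a relative without a known substrate, had 3.27, 3.83, 3.79 and 3.18 CPM in Control embryos and 4.04, 4.53, 4.64 and 4.93 CPM in mutants, also without overlap, at 0.37 with a standard error of 0.13 (adjusted p = 0.0885). Slc7a1, the most abundant of the group per length, gave -0.21 with a standard error of 0.20 (adjusted p = 0.489) and Slc7a2 gave -0.19 with a standard error of 0.17 (adjusted p = 0.430).

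Glutamine and small neutral amino acids are carried by the Slc38 family. Slc38a3, a system N carrier of glutamine and histidine, had 23.9, 33.2, 32.2 and 19.3 CPM in Control embryos and 181, 31.4, 88.9 and 58.8 CPM in mutants. K14J28 lay within the Control range while K14J26 was the highest, and the log2 fold change was 1.73 with a standard error of 0.46 (adjusted p = 0.0366). Without K14J26 it was 1.14 (adjusted p = 0.0330, within a range of 0.00750 to 0.105 over the 8 fits that each left out 1 embryo). Slc38a11, whose substrates are little known, had 0.0554, 0.165, 0.311 and 0.473 CPM in Control embryos and 2.64, 0.499, 1.21 and 0.776 CPM in mutants. The gene reached the count minimum in the mutant group alone, so a difference was built into its being tested. The groups did not overlap, though K14J28 was close to J7. The log2 fold change was 2.23 with a standard error of 0.64 (adjusted p = 0.0447). Without K14J26 it was 1.62 (adjusted p = 0.0582, within a range of 0.0182 to 0.113).

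The system A carriers did not pass the threshold. Slc38a2 was the most abundant carrier per length over all 8 embryos, though below Slc3a2 in Control embryos alone, with 342, 363, 365 and 358 CPM in Control embryos and 639, 396, 420.0 and 348 CPM in mutants. K14J26 was high and K14J30 lay within the Control range, and the log2 fold change was 0.34 with a standard error of 0.16 (adjusted p = 0.178). Slc38a1 had 140.0, 131, 136 and 158 CPM in Control embryos and 65.2, 121, 93.8 and 116 CPM in mutants. All mutants were lower, K14J26 most, at a log2 fold change of -0.51 with a standard error of 0.17 (adjusted p = 0.0688). Slc38a4 gave -0.43 with a standard error of 0.19 (adjusted p = 0.135). Slc38a10 was also among the 5 most abundant carriers, with 139, 144, 154 and 143 CPM in Control embryos and 192, 138, 194 and 187 CPM in mutants. K14J28 was below all Control embryos and the other mutants above them, and the log2 fold change was 0.29 with a standard error of 0.10 (adjusted p = 0.0835). Slc38a9, which reports lysosomal arginine to mTORC1, gave 0.32 with a standard error of 0.11 (adjusted p = 0.0800), and Slc38a5, Slc38a6 and Slc38a7 had log2 fold changes of 0.18, 0.28 and 0.077.

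**Figure D2:**
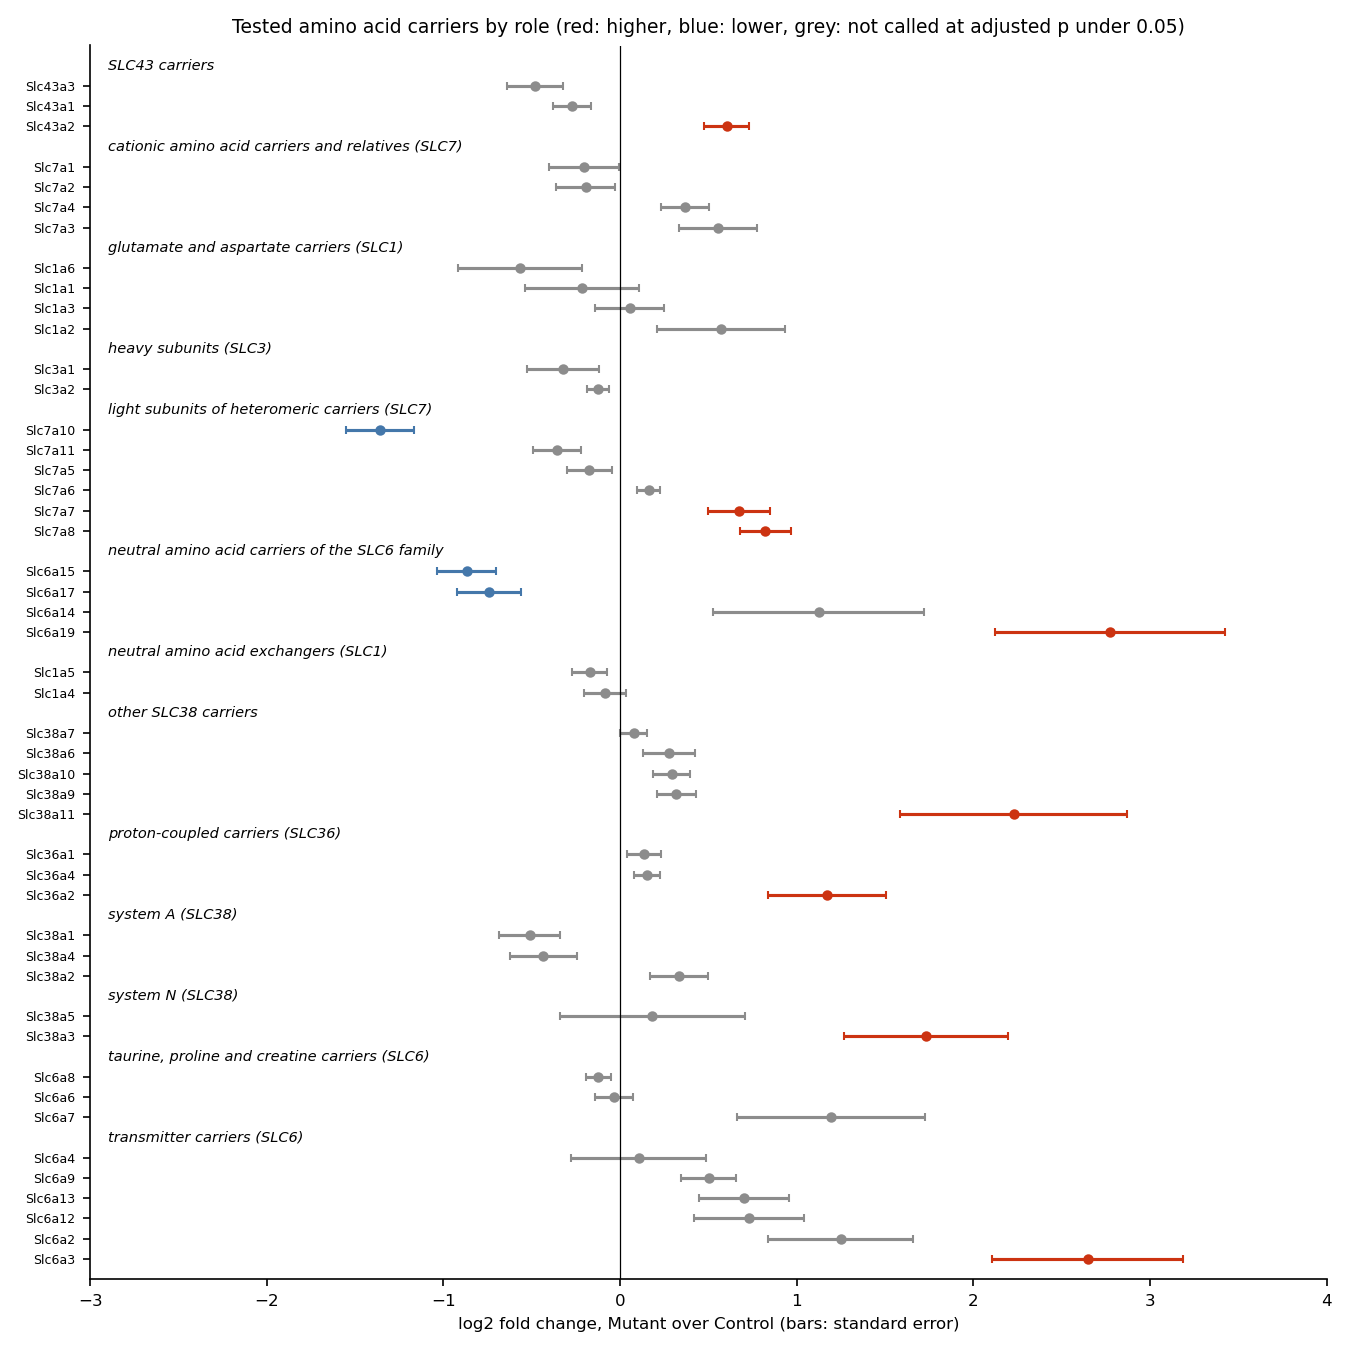
Log2 fold change, mutant over Control, with its standard error for 47 tested carriers grouped by role (Slc7a12 is left out for its low counts), coloured where the adjusted p was under 0.05. Called carriers occur on both sides of 0, 8 higher and 3 lower.

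Of 4 tested neutral amino acid carriers of the Slc6 family, 1 rose and 2 fell, where 9.52% of all tested genes rose and 6.61% fell. A group of 4 is too small for its share to be compared. Slc6a19, which takes up neutral amino acids with sodium in gut and kidney, had 0.166, 0.371, 0.571 and 0.236 CPM in Control embryos and 5.48, 0.998, 1.80 and 1.09 CPM in mutants. The gene reached the count minimum in the mutant group alone, so a difference was built into its being tested. The values were low in all embryos and highest in K14J26. The log2 fold change was 2.77 with a standard error of 0.65 (adjusted p = 0.0257). Without K14J26 it was 1.95 (adjusted p = 0.0138, within a range of 0.0114 to 0.0825 over the fits with 1 embryo left out). Slc6a15, a carrier of branched-chain amino acids and proline known from brain, had 6.37, 4.45, 5.50 and 5.88 CPM in Control embryos and 2.60, 2.93, 2.91 and 3.69 CPM in mutants. All mutants were lower, at a log2 fold change of -0.87 with a standard error of 0.17 (adjusted p = 0.0153). Slc6a17, found on synaptic vesicles, had 12.2, 10.8, 9.44 and 11.7 CPM in Control embryos and 5.05, 9.02, 5.68 and 6.52 CPM in mutants, again all lower, at -0.74 with a standard error of 0.18 (adjusted p = 0.0283). Slc6a14 gave 1.12 with a standard error of 0.60 (adjusted p = 0.211).

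Of the transmitter carriers, 1 of 6 tested passed, a rise, where 9.52% of all tested genes rose. The dopamine carrier Slc6a3 had 0.166, 0.412, 0.571 and 0.169 CPM in Control embryos and 3.41, 0.998, 2.70 and 1.16 CPM in mutants. All mutants were higher, with K14J26 and K14J29 above the rest, and the log2 fold change was 2.65 with a standard error of 0.54 (adjusted p = 0.0177). Slc6a3 lies on chromosome 13 from 73536747 to 73578672, and Slc6a19 lies close by from 73679745 to 73704865, with Slc6a18, counted at most 2 times in any embryo, beside it. The glycine carrier Slc6a9 had 13.3, 15.9, 14.9 and 12.9 CPM in Control embryos and 27.4, 18.0, 16.6 and 18.9 CPM in mutants, without overlap, at a log2 fold change of 0.50 with a standard error of 0.16 (adjusted p = 0.0581). Slc6a2, Slc6a12 and Slc6a13 had log2 fold changes of 1.25, 0.73 and 0.70 with adjusted p of 0.0653, 0.129 and 0.0852. The taurine carrier Slc6a6 was the fourth most abundant carrier per length over all 8 embryos, with 194, 203, 202 and 217 CPM in Control embryos and 237, 215, 166 and 179.6 CPM in mutants, which overlapped at a log2 fold change of -0.033 with a standard error of 0.11 (adjusted p = 0.857). The creatine carrier Slc6a8 gave -0.12 with a standard error of 0.070 (adjusted p = 0.235), and the proline carrier Slc6a7, at most 28 counts in any embryo, gave 1.19 with a standard error of 0.53 (adjusted p = 0.145).

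Slc36a2, a proton-coupled carrier of glycine and proline, had 2.16, 4.37, 5.86 and 3.11 CPM in Control embryos and 13.8, 6.29, 7.69 and 7.22 CPM in mutants. The lowest mutant, K14J28, was just above the highest Control embryo, J6, and the log2 fold change was 1.17 with a standard error of 0.33 (adjusted p = 0.0439). Scaled by library size alone, the log2 fold change was 1.04 and Slc36a2 was not called (adjusted p = 0.0513). Without K14J26 the log2 fold change was 0.87 (adjusted p = 0.0557, within a range of 0.0263 to 0.122 over the fits with 1 embryo left out). Slc36a1 and Slc36a4 had log2 fold changes of 0.13 and 0.15 and were not called.

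In the Slc43 family, Slc43a2, which carries branched-chain amino acids and phenylalanine without sodium, had 10.3, 10.2, 13.1 and 10.7 CPM in Control embryos and 13.3, 17.2, 18.2 and 18.4 CPM in mutants. K14J26 was the lowest mutant here, just above J6, and the log2 fold change was 0.60 with a standard error of 0.13 (adjusted p = 0.0203). This call too ended by library size alone, at a log2 fold change of 0.51 (adjusted p = 0.0729). With Xist as a covariate it also ended, at 0.50 (adjusted p = 0.0695). Slc43a3, known to carry purine nucleobases in place of amino acids, had 40.0, 37.0, 34.3 and 44.1 CPM in Control embryos and 19.1, 32.6, 27.4 and 32.1 CPM in mutants, all lower and K14J26 lowest, at -0.48 with a standard error of 0.16 (adjusted p = 0.0676). Slc43a1 gave -0.27 with a standard error of 0.11 (adjusted p = 0.111). Neither the glutamate and aspartate carriers Slc1a1, Slc1a2, Slc1a3 and Slc1a6 nor the neutral exchangers Slc1a4 and Slc1a5 passed the threshold. Slc1a5, a glutamine exchanger, was the most abundant of these 6 per length and gave -0.17 with a standard error of 0.10 (adjusted p = 0.249).

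Of the 11 calls, 9 were lost in at least 1 of the fits that left out 1 embryo, most of which also made fewer calls over all genes. Over all tested genes there were 1631 rises and 1133 falls with all 8 embryos, 373 and 287 without J3, 300 and 236 without J7, and 250 and 170 without K14J29. There were more without K14J28, 2479 and 1843, and without K14J26, 1746 and 1349. Log2 fold changes over these fits ran from 2.31 to 3.01 for Slc6a3, from -0.98 to -0.80 for Slc6a15 and from 0.55 to 0.70 for Slc43a2. They ran from 1.95 to 3.10 for Slc6a19, from -0.94 to -0.64 for Slc6a17 and from 1.14 to 2.01 for Slc38a3. The ranges were 0.53 to 0.82 for Slc7a7, 0.87 to 1.43 for Slc36a2 and 1.62 to 2.77 for Slc38a11. Leaving out J3, J7 or K14J29 put Slc6a3 at an adjusted p above 0.05, and over the 8 fits its adjusted p ran from 0.00721 to 0.0613. For Slc6a15 the same happened without J3, J7 or K14J29 (0.0145 to 0.0559), and for Slc43a2 without J3, J5, J7 or K14J29 (0.00568 to 0.0714). Slc6a19 missed the threshold without J3, J5, J7 or K14J29 (0.0114 to 0.0825), Slc6a17 without J3, J5, J7, K14J29 or K14J30 (0.00560 to 0.0841), and Slc38a3 without J3, J5, J6, J7 or K14J29 (0.00750 to 0.105). Slc7a7 missed it without J3, J5, J6, J7, K14J29 or K14J30 (0.00514 to 0.0973), Slc36a2 without J3, J5, J7, K14J26, K14J29 or K14J30 (0.0263 to 0.122), and Slc38a11 without J3, J5, J6, J7, K14J26, K14J29 or K14J30 (0.0182 to 0.113). Slc7a8 and Slc7a10 alone of the 11 were still called without J3, without J7 and without K14J29, while 9 of the 11 were without K14J26. Without both J6 and J7, the Control embryos high in muscle transcripts, none of the 11 carriers passed, in a fit that called 7 of 16881 genes, while all 11 kept the direction of their log2 fold change.

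Of the 8 carriers that rose, 6 were highest in K14J26, which had the highest summed ameloblast and odontoblast markers, and 7 were the lowest in K14J28, which had the lowest of both among the mutants. Over all 1631 genes that rose, 63.0% were highest in K14J26 and 57.2% had their lowest mutant value in K14J28, so each was the case for most rises and was not particular to the carriers. Slc43a2 was the exception at the low end, with its lowest mutant value in K14J26. All 3 carriers that fell were lowest in K14J26, as were 50.2% of all 1133 genes that fell. The part of these cell type markers, of the oral epithelium and osteoclast markers of K14J28 and of the muscle markers of J6 and J7 in the carriers' differences was not tested.

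**Figure D3:**
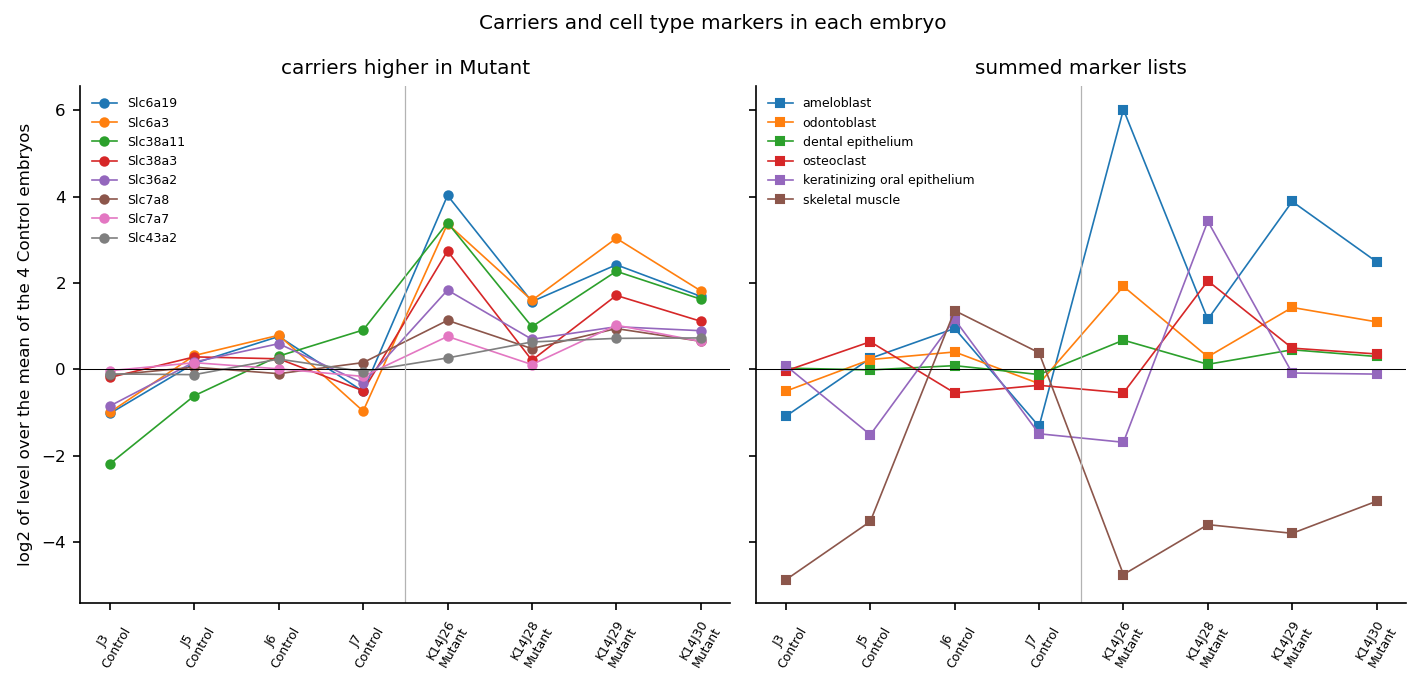
Log2 of each embryo's level over the mean of the 4 Control embryos, for the 8 carriers that rose (left) and for 6 summed marker lists (right). K14J26 is highest for 6 of the 8 carriers and for the ameloblast and odontoblast sums.

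Levels of different genes were compared per length, as CPM per kb of annotated exon averaged over the 8 embryos. The highest were Slc38a2 at 45.7, Slc3a2 at 39.8, Slc38a10 at 25.1, Slc6a6 at 23.8 and Slc7a5 at 19.7 CPM per kb, and these 5 made up 49.3% of the summed level of all 61 carriers. In Control embryos alone Slc3a2, at 41.6, was above Slc38a2, at 40.4 CPM per kb. None of the 5 was called. Slc38a3 was among the 10 highest over all 8 embryos through its level in the mutants, 17.1 CPM per kb, against 5.14 in Control embryos, where none of the 10 highest carriers was a called one. The other called carriers lay, over all 8 embryos, between 0.178 (Slc38a11) and 4.87 CPM per kb (Slc7a7).

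**Figure D4:**
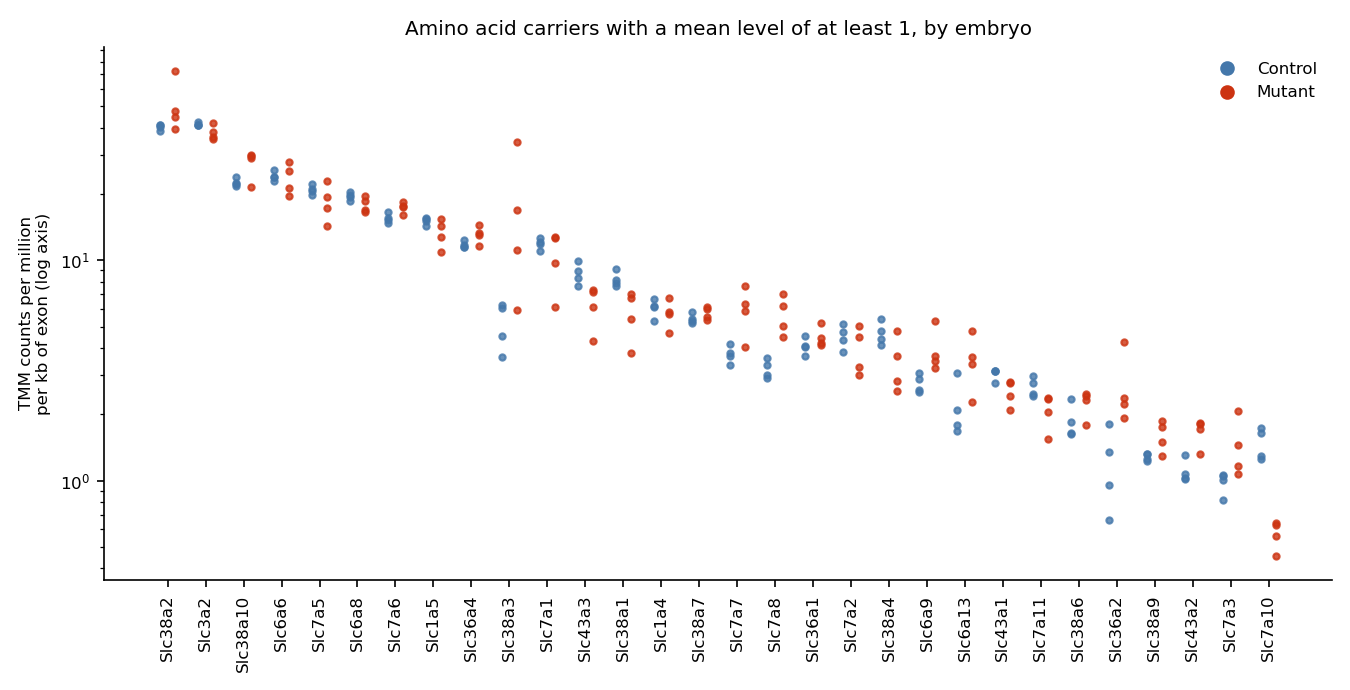
CPM per kb of exon in each embryo, on a log axis, for the carriers with a mean of at least 1 CPM per kb, ordered by that mean. Slc38a2 and Slc3a2 are highest, and Slc38a3 shows the widest spread over the mutants among the 10 highest.

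Beyond the 22 carriers given with their values in each embryo, 26 were tested, and leaving out Slc7a12 their log2 fold changes ran from -0.57 (Slc1a6) to 1.25 (Slc6a2), with adjusted p from 0.0653 to 0.873. Among the carriers that failed the count minimum, Slc7a9 had at most 6 counts in an embryo, and 11 more, Slc1a7, Slc36a3, Slc38a8, Slc6a5, Slc6a11, Slc6a16, Slc6a18, Slc6a21, Slc7a13, Slc7a14 and Slc7a15, had at most 3 counts in any embryo.

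Some carriers share exon bases with a gene on the opposite strand, and as the kit does not mark strand, reads of the shared bases cannot be told apart. Slc7a10 shares 377 bases with Lrp3, which itself fell by 0.72 on the log2 scale (adjusted p = 0.00960) and averaged 452.4 counts per embryo against 50.9 for Slc7a10. Slc7a7 shares 232 bases with Oxa1l, whose log2 fold change of -0.23 (adjusted p = 0.0344) has the opposite sign. Slc6a9 shares 1429 bases with Ccdc24 (-0.43, adjusted p = 0.0764) and 46 with B4galt2 (-0.35, adjusted p = 0.0133). Slc3a1 shares 601 bases with the more abundant Prepl, Slc7a4 shares 554 with P2rx6, Slc1a1 shares 2631 with 4430402I18Rik, and Slc43a2 shares 922 with Gm45606, which was not analysed here. The values of all the carriers with shared bases are uncertain to that extent. How reads in shared bases were counted was not given in the sources used here.

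Genes around amino acid supply were read from lists of their own, again at an adjusted p under 0.05 in edgeR's quasi-likelihood test. Of 22 tested genes of the amino acid response and its transcription factor Atf4, 8 rose and 2 fell, where 9.52% of all tested genes rose and 6.61% fell. Chac1, which degrades glutathione, had 0.775, 0.701, 1.30 and 0.540 CPM in Control embryos and 22.1, 3.66, 11.9 and 7.76 CPM in mutants, highest in K14J26 and lowest of the mutants in K14J28, and a log2 fold change of 3.80 with a standard error of 0.56 (adjusted p = 0.00841). The next largest rises were Cebpg (0.89, standard error 0.15, adjusted p = 0.0115) and Vldlr (0.68, standard error 0.16, adjusted p = 0.0252), and the falls were Atf3 (-0.55, standard error 0.11, adjusted p = 0.0179) and Eif4ebp1 (-0.50, standard error 0.13, adjusted p = 0.0325). Atf4 itself and Asns were not called, at log2 fold changes of 0.062 and 0.020. Of 17 tested genes of glutathione and cystine use, 7 rose and none fell, beside the same 9.52% and 6.61% over all tested genes, with Chac1, Ggt6 (0.86, standard error 0.23, adjusted p = 0.0376) and Chac2 (0.60, standard error 0.13, adjusted p = 0.0226) the largest.

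Of 32 tested genes through which mTORC1 senses amino acids, 11 rose and 2 fell, mostly by little, where 9.52% of all tested genes rose and 6.61% fell. Sesn2 (0.55, standard error 0.12, adjusted p = 0.0218) and Castor2 (0.50, standard error 0.13, adjusted p = 0.0355) were among the largest rises, and the falls were Rragd (-0.73, standard error 0.21, adjusted p = 0.0415) and Lamtor1 (-0.19, standard error 0.058, adjusted p = 0.0499). Of 22 tested genes of amino acid synthesis, 1 rose and none fell. Of 20 cytosolic aminoacyl-tRNA synthetases 1 rose, Sars (0.39, standard error 0.090, adjusted p = 0.0243), and none fell. Of 11 tested genes in the list of other amino acid and peptide carriers, where Slc6a20a and Slc6a20b were too low to be tested, 1 rose, the lysosomal Pqlc2 (0.46, standard error 0.10, adjusted p = 0.0221), and 2 fell, the mitochondrial Slc25a12 (-0.38, standard error 0.061, adjusted p = 0.0100) and Slc25a15 (-0.38, standard error 0.096, adjusted p = 0.0316). The median log2 fold changes were 0.13 for the response genes, 0.28 for glutathione and cystine use, 0.13 for mTORC1 sensing, 0.030 for synthesis, 0.048 for the synthetases and -0.25 for the other carriers, beside 0.0058 over all tested genes. Chac1, Sesn2, Asns and Cth are each in more than one list. Counting each gene once, 27 rose and 6 fell, against 8 and 3 when scaled by library size alone. With 1 embryo left out the rises ran from 4 (without K14J29) to 33 (without K14J28). Over all tested genes, 1631 rose with all embryos, 855 by library size alone, 250 without K14J29 and 2479 without K14J28.

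**Figure D5:**
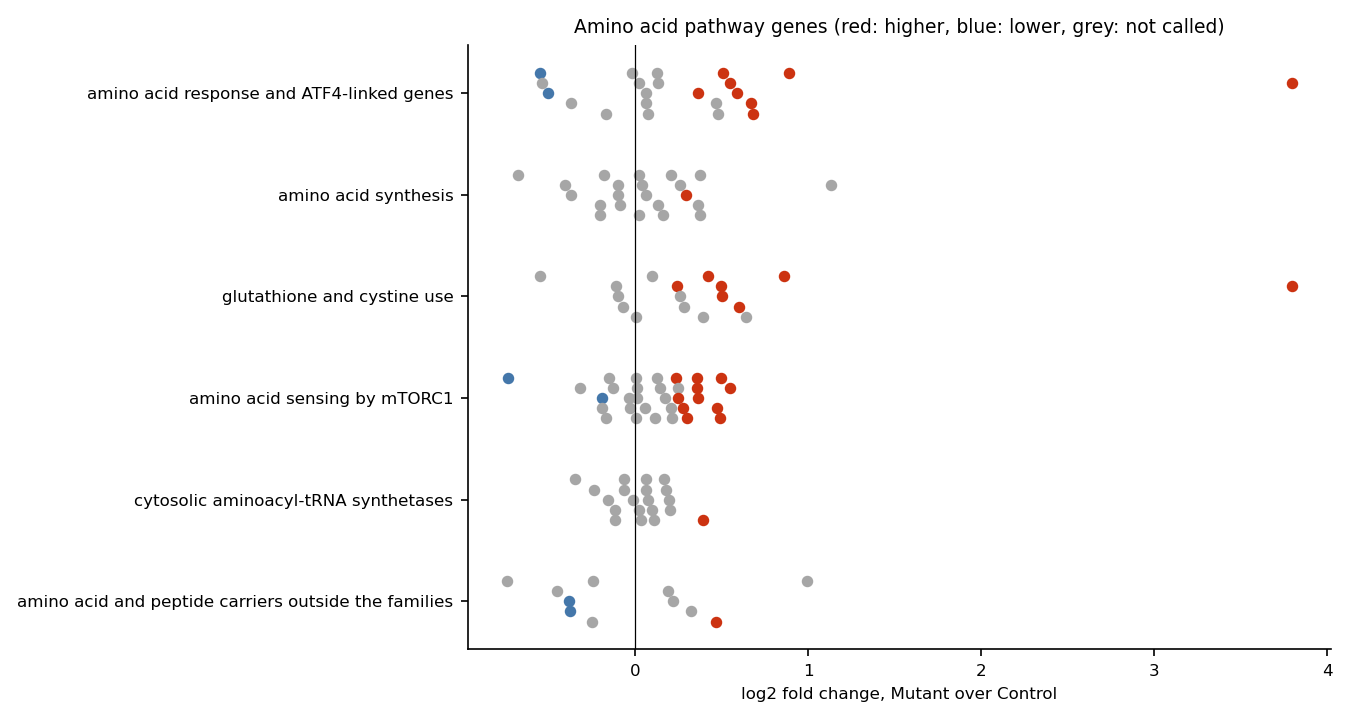
Log2 fold change, mutant over Control, of each tested gene in 6 lists of amino acid pathways, coloured where the adjusted p was under 0.05. Chac1 stands apart at 3.80, and most other called genes lie within 1 of 0.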

How the data were processed

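RNA of 4 Control and 4 mutant E18.5 lower first molar samples was sequenced with a TruSeq kit that does not mark strand. The authors deposited raw read counts per Ensembl gene, one table per embryo. STAR, featureCounts and GRCm38.p3 are named in the submitters' processing notes, while the paper names GenomicRanges for the counting. Of 43629 identifiers, 42548 were found in GENCODE M21 (GRCm38), which gave symbols, positions and exon lengths.

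Testing was limited to the 17129 genes reaching 10 counts in 2 or more embryos of a genotype, and was done with edgeR 4.0.16 (TMM, quasi-likelihood, no covariates, Benjamini-Hochberg over all genes kept) in R 4.3.3. Standard errors were obtained by dividing the size of the log2 fold change by the root of the F statistic. Precision was limited by 4 embryos per group, with total counts from 17327224 to 29792467. Tested on simulated counts with known changes, the fit missed many of the smaller changes, and the share of false calls among its calls was above the nominal level.

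Members given in full were those with an adjusted p under 0.05, those without overlap between the groups and the 5 highest per length. From each pathway list up to 3 called rises and 3 called falls were named; Atf4 and Asns were picked with their values known. The members and lists were chosen with earlier results of these data known. Alternatives were RLE and library size scaling, TMM without the 20 most abundant genes, DESeq2 1.42.0, other count filters, Xist as a covariate, an adjusted p under 0.1, and leaving out each embryo or both J6 and J7. Promoters were from RefSeq (GRCm38.p6). Some results for members and list genes are not reported here.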

Additional observations from a re-analysis of the deposited data

Results flagged for a closer look

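In 5 of the 96 groups of 4 embryos formed by the 48 tested carriers and the 2 genotypes, 1 embryo lay far from the other 3 relative to the range of its group, where chance gives about 1 in 20 groups. Slc3a2 was high in Control J3 at 151 CPM against 145 to 146 CPM in the other Control embryos. Slc1a1 was high in Control J7 at 2.70 CPM against 1.30 to 1.44 CPM. Slc43a1 was low in Control J6 at 15.9 CPM against 17.9 to 18.0 CPM. Slc7a12 had 0.0825 CPM, from 2 counts, in Control J5 and no count in the other Control embryos. Where the others have no count, any count is flagged, so this flag carries no weight beside the chance rate. Slc38a10 was low in the mutant K14J28 at 138 CPM against 187 to 194 CPM in the other mutants. The causes were not tested.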

How the results depend on the processing

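The 11 called carriers kept the direction of their log2 fold change under every alternative in which they were tested. All 11 stayed called under RLE scaling, TMM without the 20 most abundant genes, DESeq2 and no count filter, 9 with Xist as a covariate (Slc7a7 and Slc43a2 were lost), and 8 by library size only (Slc7a7, Slc43a2 and Slc36a2 were lost). By library size only, 5 carriers rose and 5 were higher without overlap, and 44.6% of all calls were rises, against 59.0% under TMM. There, 8 genes of the pathway lists rose and 3 fell, beside 855 and 1060 of all 17129 tested genes. Of the carriers given in full but not called above, Slc3a2 passed by library size only (log2 fold change -0.23, adjusted p = 0.0477). Slc6a9 passed with Xist as a covariate (0.73, adjusted p = 0.0272). DESeq2 called 11 carriers higher and 5 lower, and 30 genes of the pathway lists higher and 11 lower. Over all 17129 tested genes it called 2244 higher and 1718 lower. Slc6a9 was among its higher carriers, and Slc38a1 and Slc43a3 among its lower ones. With at least 10 counts in all 8 embryos, 5 carriers rose, 8 were higher by the reading of the study's criteria used here and 4 were higher without overlap, fewer genes being tested. Over all 14961 genes tested then, 1596 rose and 1216 fell. At an adjusted p under 0.1, 15 carriers were higher and 6 lower. A looser threshold passes more genes of any kind, and the share of all genes at it was not taken. Without Control J6 and J7, 0 carriers and 0 genes of the pathway lists passed in either direction by edgeR, 9 carriers were higher by the study's criteria (unadjusted p), 14 were higher without overlap, 3 were lower by those criteria, and the Jag1 log2 fold change was -1.18 (adjusted p = 0.114). With 2 Control embryos left, that fit has fewer samples, and over all 16881 genes tested it called 3 higher and 4 lower. With fewer embryos, any gene meets non-overlap more easily. Shares of all genes past the study's criteria or without overlap were taken for the main fit only. Such counts under the alternatives are therefore not results about the carriers.

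With 1 embryo left out in turn, the carriers that rose numbered 1 to 12 and those that fell 1 to 6. Over all tested genes, 250 rose and 170 fell without K14J29, 2479 rose and 1843 fell without K14J28, and 1746 rose and 1349 fell without K14J26. Some carriers given in full but not called with all embryos passed in the latter fits. Slc38a1, Slc43a3 and Slc6a9 passed without K14J26 and also without K14J28. Slc3a2 passed without K14J26 (adjusted p = 0.0466) and Slc38a10 without K14J28 (adjusted p = 0.00564), by the same edgeR test. With 1 embryo left out, the study's criteria gave 9 to 14 higher and 3 to 7 lower, and non-overlap 9 to 14 higher and 6 to 8 lower. The same counts over all genes were not taken for these fits. Any gene meets non-overlap more easily with an embryo left out, so these ranges are not results about the carriers. Genes of the pathway lists that rose numbered 4 to 33 and those that fell 1 to 9, and the log2 fold change of Jag1 ran from -1.34 to -1.09. Slc6a6, not called, changed sign with Xist as a covariate (0.042), without J6 and J7 (0.0027), without K14J29 (0.047) and without K14J30 (0.015), and ran from -0.13 to 0.047 with 1 embryo left out. The causes were not tested. No paired analysis was possible because the labels do not say which embryos shared a litter, though the study calls the Control embryos littermates, and the groups share no replicate numbers.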

Other observations

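Xist, the transcript of the inactive X chromosome, had 0.388, 0.454, 0.259 and 0.574 CPM in the Control embryos and 0.433, 1929.7, 1468 and 1.09 CPM in the mutants, so it was high in K14J28 and K14J29 only. The X-linked carriers were Slc38a5, Slc6a14, Slc6a8 and Slc7a3, and none of them was called. The 61 carriers together took 0.194%, 0.199%, 0.199% and 0.202% of all counts in the Control embryos and 0.193%, 0.205%, 0.189% and 0.197% in the mutants. On the TMM scale used for all other levels, their summed level was 1859.7, 1924, 1927 and 1952 CPM in the Control embryos and 2296, 1967, 1953 and 1939 CPM in the mutants, so K14J26 was the highest embryo on that scale and below all Control embryos by share of counts.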
